A study of Homo sapiens with 8 samples.

Results

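The transcriptional response to A939572, an inhibitor of stearoyl-CoA desaturase 1 (SCD1), was compared between renal carcinoma lines that came from metastases and lines that came from primary tumours. The labels call all 4 lines clear cell renal carcinoma lines, bought from ATCC, and they do not give the site of origin, which is background knowledge of the lines. ACHN (grown from a pleural effusion) and CAKI1 (from a skin metastasis) formed the metastasis-derived side, and CAKI2 and A498, both from kidney tumours, the primary-tumour side. Each line had 1 array of cells given the solvent DMSO and 1 array of cells given 75 nM A939572 for 24 h, so all 8 arrays of the series were used, 4 on each side. The measure was the difference between the treated and the DMSO array of a line on the log2(signal + 16) scale, called the response below, where 1 is a 2-fold change of a bright gene. The sides were set by origin. The genes described were chosen by these measured responses, so differences in response between the sides are descriptions and carry no test. Each side holds 2 lines, each from 1 person's tumour, and origin is confounded with line identity: an effect of metastatic origin and any other difference between these particular lines cannot be told apart. The labels do not say that treated and control cells of a line were separate cultures of several, and the spread measured is that between lines.

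SCD1 puts the first double bond into saturated fatty acids, and its block leaves membranes rich in saturated lipid. The endoplasmic reticulum answers such stress with the unfolded protein response, whose branches act through the factors ATF6, XBP1 and ATF4 and raise chaperones, amino acid transporters and, through CHOP, death genes. A separate defence runs through NRF2, a factor that KEAP1 holds down and that oxidants release; it raises enzymes of glutathione and thioredoxin metabolism and drug-clearing reductases.

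All arrays had been scaled to 1 level by the authors, with trimmed means of 500.067 to 500.073. PAX8, a renal lineage factor, lay between 11.97 and 13.02 on every array, and the filaments KRT18 and VIM were at 12.73 or above. Some renal genes were dim: of 16 on the arrays 10 passed the filter on dim genes, and AQP1, CDH16, CUBN, GGT1, LRP2 and SLC34A1 did not. The lineage factor PAX2 was at 5.88 and 5.93 in CAKI1, below that filter. Of the leukocyte, endothelial and fibroblast markers only PECAM1 and COL1A1 passed the filter on dim genes. The summed signals of the 6 fibroblast markers ran from 229.6 to 1414, of the 5 endothelial ones from 181.2 to 544.7 and of the 4 leukocyte ones from 52.8 to 174.8. Of these 4, PTPRC and CD14 were below the filter level on every array, CD3E was at or above it on 3 arrays and LYZ on 1. The ACTB 3′ to 5′ signal ratio, a sign of RNA quality, was higher with the drug in every line, by 0.98 (log2) in ACHN, 0.51 in CAKI1, 0.64 in CAKI2 and 0.42 in A498. The 28S rRNA probe set was higher by 2.66, 2.79, 1.37 and 2.60. For 28S rRNA the metastasis-derived lines lay above both primary-tumour lines, A498 close below them; for the ACTB ratio the sides overlapped. Their part in the results below was not tested.

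The drug response was of like size on both sides. Genes with a response of at least 1 either way made up 15.7% in ACHN, 10.2% in CAKI1, 12.6% in CAKI2 and 12.2% in A498. Across the 12093 genes tested, responses correlated at 0.594 between ACHN and CAKI1 and 0.594 between CAKI2 and A498. Across sides they correlated at 0.521 (CAKI1 with A498 and with CAKI2), 0.566 (ACHN with A498) and 0.586 (ACHN with CAKI2). Genes are not independent replicates, and the arrays shared 1 normalization. The mean of the response over both sides, which does not depend on the difference between them, passed limma's test (Benjamini-Hochberg adjusted p under 0.05) for 3875 genes (32%), of which 1856 were higher (15.3%) and 2019 lower (16.7%). With each array centred on its median the split was 2209 higher and 1606 lower. Without CAKI2 the count was 2535 and without A498 it was 2573. Of the 3875 genes, 3664 had the same sign in all 4 lines, and the mean response was larger in size on the metastasis-derived side for 1898. Below, a gene said to rise or fall over both sides did so in this mean, not always on each side.

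The difference between the sides passed the same limma test for 2 genes (0.0165%), SLC7A11, higher on the metastasis-derived side, and CXCL2, higher on the primary-tumour side; 853 genes had an unadjusted p under 0.05. The count was 0 without CAKI2 or without A498, 1 without ACHN (SLC7A11) and 19 without CAKI1. As the comparison chose the genes, nothing more is read from it. Below, a gene is said to be separated where the responses of both lines of a side lie above those of both lines of the other, and its gap is the distance between the nearest of them. Of all genes tested, 2315 (19.1%) were separated with the metastasis-derived side higher and 2199 (18.2%) with the primary-tumour side higher, and the counts in gene lists stand against these shares. The metastasis-derived side was higher by a gap of 1 or more in 41 genes (0.339%), and the primary-tumour side in 55 (0.455%). With gaps signed as metastasis-derived minus primary-tumour, GNAI2 (-1.001) and CRY1 (-1.004) lay just inside that limit, and HMOX1 (0.998) and PRSS23 (-0.994) just outside.

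**Figure D1:**
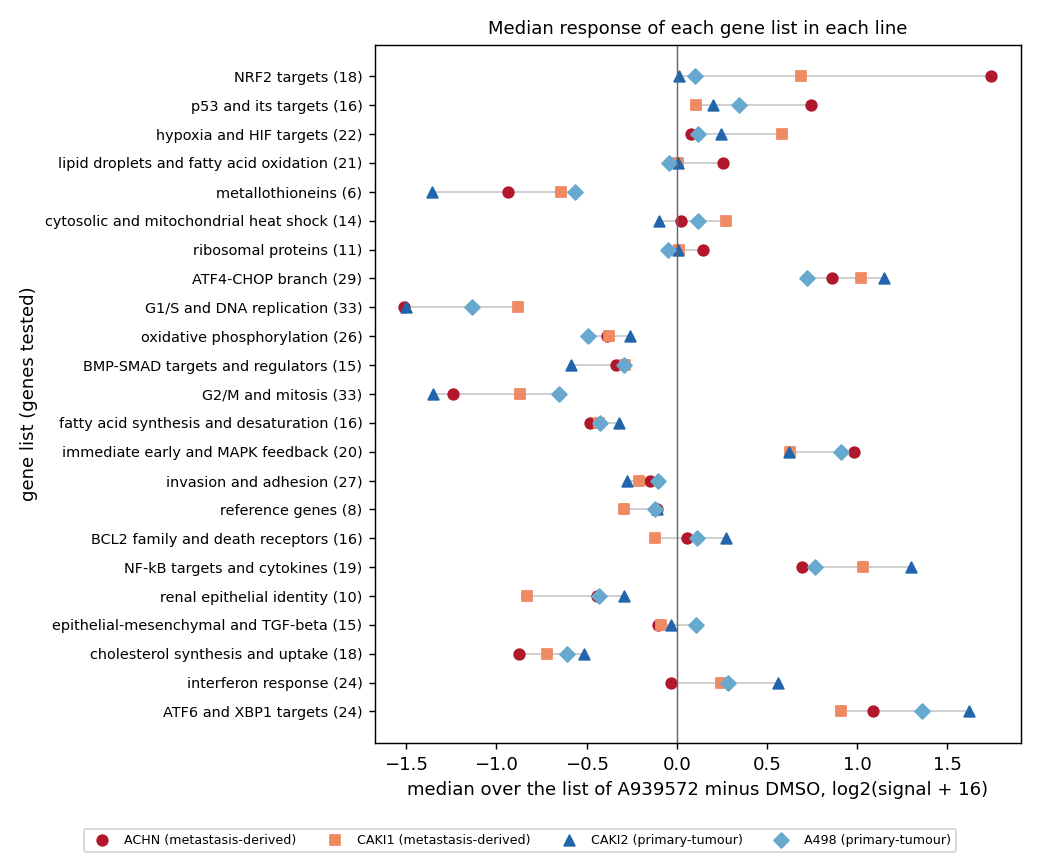
Median response of each gene list in each line. The x axis is the median over the list's tested genes of the treated minus DMSO difference in log2(signal + 16), each point is 1 line, the number of genes is in parentheses, and grey lines join the lowest and highest line. NRF2 targets lie widest apart, at 1.74 and 0.69 in ACHN and CAKI1 and 0.01 and 0.10 in CAKI2 and A498, and ATF6 and XBP1 targets lie higher in CAKI2 and A498.

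NRF2 targets responded more in the metastasis-derived lines. Of 18 tested, 14 were separated with ACHN and CAKI1 higher and 0 the other way. The median response was 1.74 in ACHN and 0.69 in CAKI1, and 0.01 in CAKI2 and 0.10 in A498; the median difference between sides was 1.07, where that of all genes was 0.0035. ACHN had the largest response of the 4 lines for 14 of the 18 (77.8%, against 27.1% of all genes) and CAKI1 for 3. Without ACHN the median difference was 0.756, and without CAKI1 it was 1.47. By limma's test of the mean response over both sides, 12 of the 18 were higher and PGD was lower. The 12 include AKR1C1 and AKR1C2, whose mean responses on the primary-tumour side alone were -0.22 and -0.27.

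The cystine importer of the list, SLC7A11, which feeds glutathione synthesis and is a target of both NRF2 and ATF4, was at 11.11 with DMSO and 13.85 with the drug in ACHN, and at 9.96 and 12.92 in CAKI1. In CAKI2 it was at 14.28 and 14.85, and in A498 at 13.87 and 14.68. Every metastasis-derived array, treated or not, lay below the primary-tumour arrays of the same treatment, and the groups closed up with the drug. The responses were 2.73, 2.96, 0.57 and 0.81, a difference between sides of 2.16 (SE 0.19), and SLC7A11 rose over both sides by 1.77 (limma adjusted p = 5.79e-05). Its other bright probe sets gave differences of 2.25 and 2.40. Its partner chain SLC3A2, counted in the ATF4 list, had responses of 2.67 in ACHN, 3.26 in CAKI1, 1.27 in CAKI2 and 1.10 in A498.

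SRXN1, which repairs oxidised peroxiredoxins, was at 10.67 and 12.56 in ACHN, 10.80 and 12.39 in CAKI1, 13.13 and 12.96 in CAKI2 and 12.73 and 12.91 in A498, DMSO first. The drug brought the metastasis-derived lines near a level that the primary-tumour lines held throughout. The heme oxygenase HMOX1 had the largest response of the list, 4.48 in ACHN, against 2.37 in CAKI1, 1.37 in CAKI2 and 1.25 in A498; it rose over both sides by 2.37 (limma adjusted p = 8.5e-04). HMOX1 changed its order among the lines: with DMSO it was lowest in ACHN (9.65) and highest in CAKI2 (12.17), and with the drug highest in ACHN (14.13), with 13.02 in CAKI1, 13.54 in CAKI2 and 13.00 in A498. GCLM, the modifier subunit of glutathione synthesis, had responses of 1.79, 1.00, 0.41 and 0.30 in ACHN, CAKI1, CAKI2 and A498. GCLC, the catalytic subunit, was not separated (1.30, 0.60, 1.01 and 0.06).

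The aldo-keto reductases, which clear reactive carbonyls, were brighter in the primary-tumour lines before any drug. AKR1B10 was at 8.10 with DMSO in ACHN and 9.36 in CAKI1, against 15.61 in CAKI2 and 15.47 in A498, and its responses were 2.73, 0.78, -0.09 and -0.21. AKR1C1 (2.27, 1.21, -0.02 and -0.43), AKR1C2 (1.85, 1.25, 0.04 and -0.59) and AKR1C3 (1.59, 0.23, 0.05 and -1.24) ran alike, but these paralogs are near-identical and a probe set can read several of them. The probe set of AKR1C2 that is specific by its ID was below the filter on dim genes. For AKR1C1, a probe set specific by its ID and above the filter had 1.44, -0.36, -0.48 and -1.18, with a gap of 0.13. OSGIN1, a growth inhibitor raised by oxidants, had responses of 3.38, 1.12, -0.02 and 0.81, the exporter ABCC2 (below the filter on dim genes in ACHN) 1.88, 1.07, 0.53 and 0.23, and the thioredoxin reductase TXNRD1 1.69, 0.50, 0.12 and 0.44. NQO1, a quinone reductase, was separated through values of -0.65 in CAKI2 and -0.88 in A498 beside 0.54 and 0.03 in ACHN and CAKI1, and its mean response did not pass (limma adjusted p = 0.11). NFE2L2, which encodes NRF2 itself, was not separated (0.36, 0.03, 0.36 and 0.45), and its inhibitor KEAP1 differed little (0.29, 0.47, -0.36 and 0.13). FTH1 had no probe set with a single symbol and was not analysed here.

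**Figure D2:**
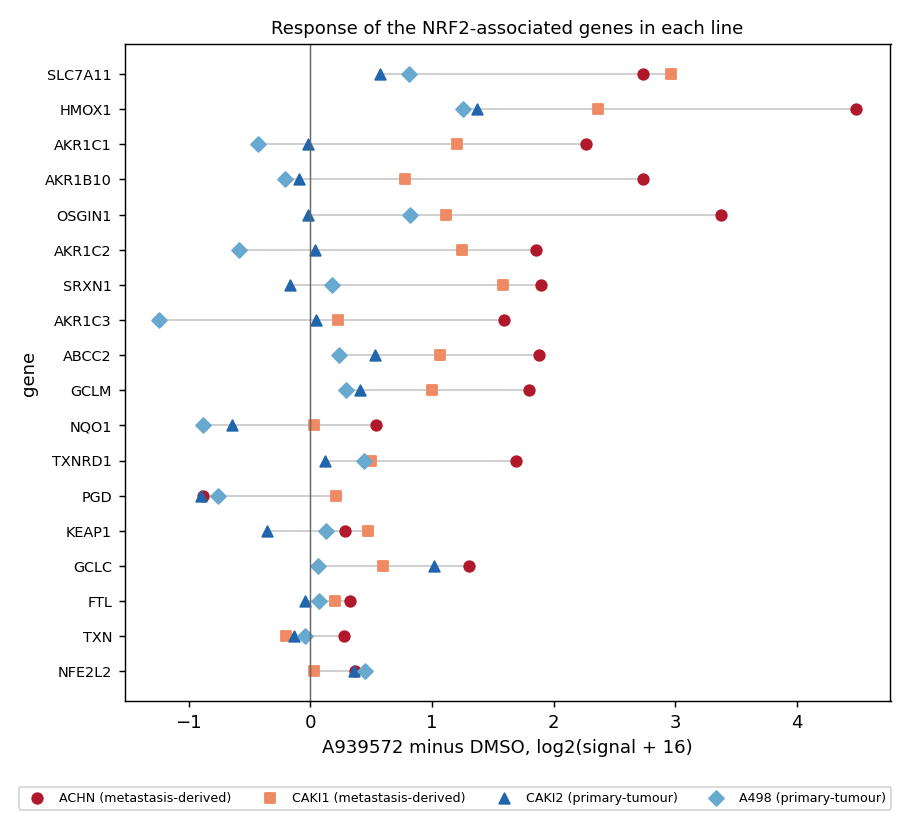
Response of the 18 NRF2-associated genes tested, ordered by the difference between sides. The x axis is the treated minus DMSO difference in log2(signal + 16), each point is 1 line and grey lines join the lowest and highest. Red and orange points (ACHN and CAKI1) lie right of both blue ones for 14 genes, from a gap of 1.93 in SLC7A11 to 0.06 in TXNRD1, and GCLC, PGD, TXN and NFE2L2 overlap.

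Levels went with these responses. With DMSO, 17 of the 18 genes were lower in both metastasis-derived lines than in both primary-tumour lines, where 18.1% of all genes were lower on that side without overlap. Since the DMSO value enters the response with a minus sign, an error in it moves both, and the mean of a line's 2 arrays is the measure free of that: by it 14 of 18 were lower in the metastasis-derived lines (18.6% of all genes). With the drug 10 of 18 were. Brightness went with the sides too: 10 of the 18 had a level at or above 13.79, the 99th percentile of probe sets, on a primary-tumour DMSO array, where the highest signal of any array was 15.81. Of those 10, 9 were separated, and of the 8 dimmer ones 5 were (KEAP1, HMOX1, SRXN1, OSGIN1 and ABCC2). The part of signal compression near the top of the scale in the brighter members was not tested.

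**Figure D3:**
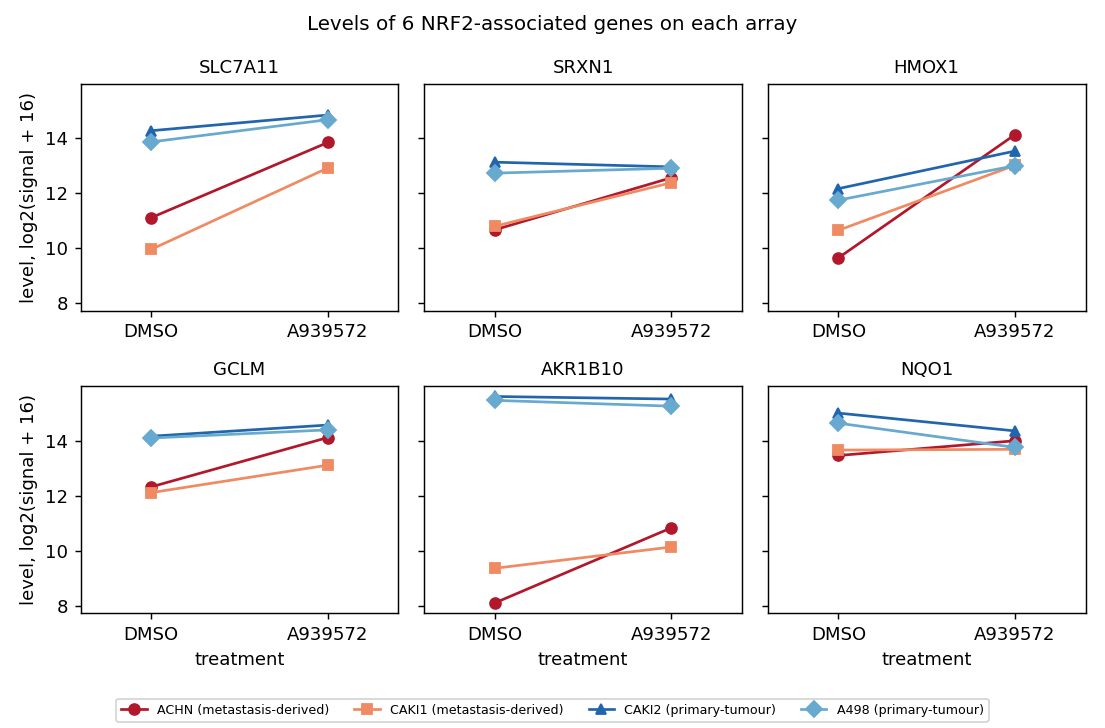
Levels of 6 NRF2-associated genes on each array. The y axis is log2(signal + 16) after quantile normalization, the x axis the treatment, and each line joins the 2 arrays of a cell line. With DMSO the red and orange points lie below the blue ones in all 6 panels, by 6.11 for AKR1B10 and 0.98 for NQO1, and with A939572 the distance is smaller.

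The antioxidant response element, through which NRF2 acts, has the core TGACNNNGC. It was searched on both strands in the 250 bases before the start of each gene in RefSeq's GRCh38.p14 promoter table, which held 15 of the 18 genes tested. GCLM, TXNRD1 and PGD had a match, 3 of 15 (20%), where 10.9% of all 35116 promoters had one; among the 11 separated genes found it was 2 (18.2%). The windows of the separated genes GCLM and TXNRD1 are shown since both hold the core near the start, 34 and 99 bases before it, counted from the first base of the match, with the match in capitals. A match describes the letters only.
GCLM (chr1:93909431-93909680, minus strand): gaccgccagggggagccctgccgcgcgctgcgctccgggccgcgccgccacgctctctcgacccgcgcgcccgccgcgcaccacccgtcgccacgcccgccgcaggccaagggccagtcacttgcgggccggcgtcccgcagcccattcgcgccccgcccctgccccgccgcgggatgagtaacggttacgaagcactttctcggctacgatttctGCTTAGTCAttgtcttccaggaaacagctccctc
TXNRD1 (chr12:104215529-104215778, plus strand): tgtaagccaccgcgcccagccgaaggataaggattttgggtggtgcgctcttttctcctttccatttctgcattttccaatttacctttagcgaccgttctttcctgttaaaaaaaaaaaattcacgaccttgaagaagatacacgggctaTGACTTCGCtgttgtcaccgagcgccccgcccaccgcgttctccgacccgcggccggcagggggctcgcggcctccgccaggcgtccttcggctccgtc

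ATF6 and XBP1 targets, the chaperones and degradation factors of the endoplasmic reticulum, rose over both sides, with higher responses on the primary-tumour side. By limma's test of the mean response 21 of 24 rose and 0 fell. Of the 24, 12 were separated with CAKI2 and A498 higher and 1, ATF6, the other way. Median responses were 1.09 in ACHN, 0.91 in CAKI1, 1.62 in CAKI2 and 1.36 in A498, and CAKI2 had the largest response for 15 of the 24 (62.5%, against 25% of all genes). With the probe sets left out that can match several transcripts, 7 of 18 were separated that way.

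BHLHA15, a secretory-cell factor induced by XBP1, had the widest gap of the list. It was at 6.99 with DMSO and 10.05 with the drug in ACHN, 5.81 and 8.60 in CAKI1, 5.53 and 10.34 in CAKI2 and 5.55 and 10.05 in A498, and rose by 3.79 over both sides (limma adjusted p = 3.2e-05). It thus reached a like level in 3 lines from lower starts in CAKI2 and A498, and with DMSO it was below the filter on dim genes in CAKI1, CAKI2 and A498. The cochaperone DNAJB11 was at 12.21 and 13.14 in ACHN, 12.98 and 13.96 in CAKI1, 12.77 and 14.45 in CAKI2 and 12.78 and 14.88 in A498, responses of 0.93, 0.98, 1.68 and 2.10 from starts that overlapped. Among other folding genes, PDIA4 had responses of 0.67, 0.71, 1.30 and 1.28, SDF2L1 of 1.27, 1.08, 2.14 and 1.83, MANF of 1.32, 0.93, 1.89 and 1.88 and HSP90B1 of 0.76, 0.95, 1.56 and 1.45, in the order ACHN, CAKI1, CAKI2 and A498. The calcium-binding chaperone CALR had 0.14, -0.25, 0.67 and 0.72, and its mean response did not pass (limma adjusted p = 0.061).

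The central chaperone HSPA5 was not separated. It rose by 1.09 over both sides (limma adjusted p = 4.6e-04), with responses of 1.11, 0.90, 1.49 and 0.86, from DMSO levels of 14.22 to 14.90 to treated levels of 15.61 to 15.77, close to the highest signal of an array. XBP1 (1.48, 0.63, 1.52 and 0.75), DNAJB9 (3.51, 2.70, 3.27 and 3.42) and the degradation factor SEL1L (1.44, 1.12, 1.90 and 1.43) overlapped too. The sensor ERN1, which splices XBP1, had 1.74, 1.38, 2.31 and 2.09.

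**Figure D4:**
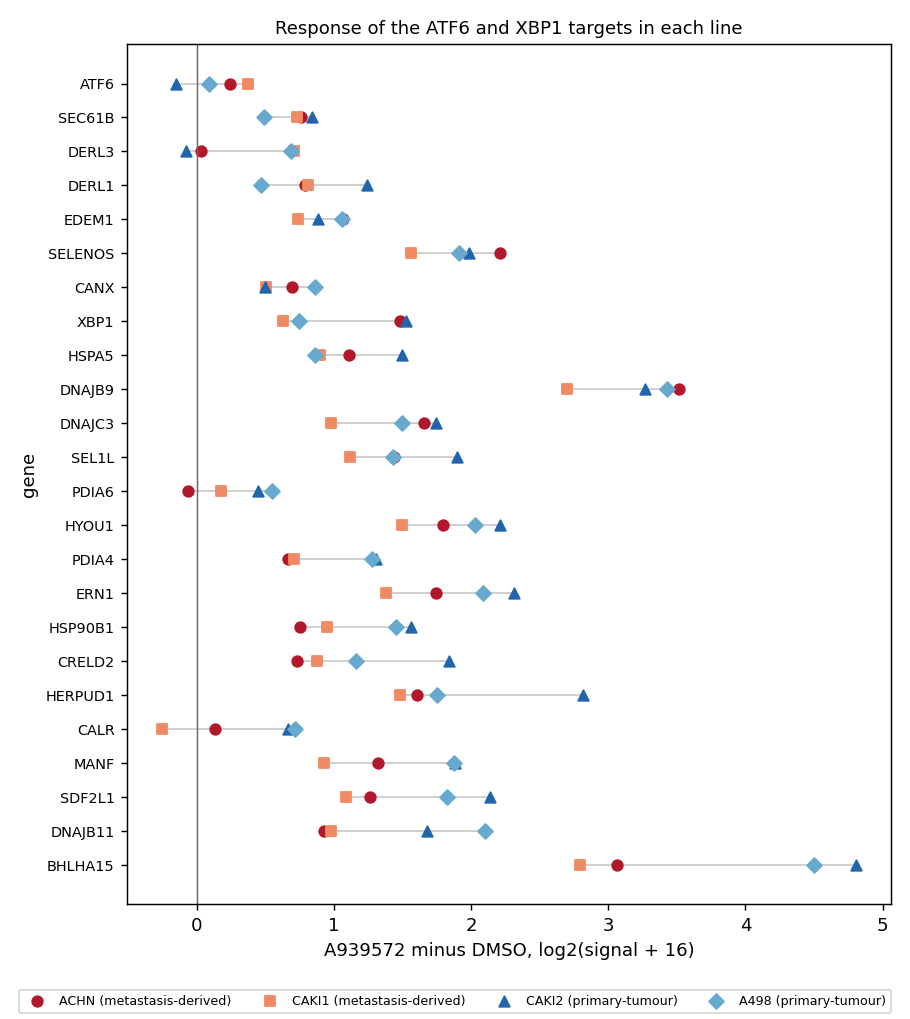
Response of the 24 ATF6 and XBP1 targets tested, ordered by the difference between sides. The x axis is the treated minus DMSO difference in log2(signal + 16), each point is 1 line and grey lines join the lowest and highest. From PDIA6 down to BHLHA15 the blue points (CAKI2 and A498) lie right of the red and orange ones, by 1.43 for BHLHA15 and 0.70 for DNAJB11, and from SEC61B to SEL1L the sides overlap.

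The endoplasmic reticulum stress response element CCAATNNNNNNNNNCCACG, searched in the same way, was found in 6 of the 22 promoters in the table (27.3%) and in 26 of all 35116 (0.074%). The 6 were HSPA5, HSP90B1, CRELD2, XBP1, CALR and CANX. Of the 13 separated genes 3 had it (23.1%). HSP90B1, with 2 matches (194 and 89 bases before the start), is shown as a separated gene, and HSPA5, with 1 (66 bases before), as a gene that was not; capitals mark the matches.
HSP90B1 (chr12:103930160-103930409, plus strand): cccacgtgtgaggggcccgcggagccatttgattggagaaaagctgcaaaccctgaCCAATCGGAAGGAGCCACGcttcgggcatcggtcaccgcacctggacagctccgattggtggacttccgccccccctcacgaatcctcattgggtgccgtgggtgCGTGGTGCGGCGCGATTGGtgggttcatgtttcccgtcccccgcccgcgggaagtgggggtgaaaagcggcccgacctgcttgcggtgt
HSPA5 (chr9:125241344-125241593, minus strand): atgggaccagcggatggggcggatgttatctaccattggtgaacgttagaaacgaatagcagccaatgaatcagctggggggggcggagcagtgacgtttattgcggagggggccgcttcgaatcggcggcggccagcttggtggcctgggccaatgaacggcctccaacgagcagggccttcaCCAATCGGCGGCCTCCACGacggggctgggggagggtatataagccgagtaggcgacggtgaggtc

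The third branch, ATF4 and CHOP, did not lean to a side as a list. Of 29 genes tested 23 rose and 1 fell over both sides, and 7 were separated with the metastasis-derived side higher and 6 with the primary-tumour side higher. Higher in ACHN and CAKI1 were the transporters SLC7A11, SLC3A2 and SLC7A5, the secreted hormone STC2 (3.05, 2.66, 1.03 and 1.68) and the kinase-like inhibitor TRIB3 (1.91, 1.54, 0.95 and 0.89). Higher in CAKI2 and A498 were CTH, which makes cysteine from cystathionine (0.57, 1.49, 3.61 and 2.38), MTHFD2 of mitochondrial one-carbon metabolism (0.18, 0.36, 1.17 and 0.56) and PSAT1 of serine synthesis (-0.48, -0.50, 0.82 and -0.16), the last with no call over both sides. The hormone GDF15 (0.75, 0.87, 1.15 and 1.01), the amino acid transporter SLC38A2 (0.78, 0.56, 0.91 and 0.84) and the receptor VLDLR lay on that side too, by smaller gaps. CTH was at 8.15 and 8.72 in ACHN, 10.67 and 12.15 in CAKI1, 9.26 and 12.87 in CAKI2 and 11.09 and 13.46 in A498, and its second bright probe set was separated the same way. A second bright probe set of STC2 gave 1.22, 1.86, 1.39 and 0.64 and was not separated.

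By the limma test of the mean response, 11 of the 19 cytokine and NF-kB genes rose and 1 fell. Of the list, 4 were separated with the metastasis-derived and 5 with the primary-tumour side higher. CXCL2, a neutrophil attractant, was at 11.95 with DMSO and 14.48 with the drug in ACHN, 12.56 and 15.24 in CAKI1, 7.46 and 12.46 in CAKI2 and 9.81 and 14.70 in A498. The starts were lower in the primary-tumour lines and the treated levels overlapped, so that the responses were 2.53, 2.68, 5.00 and 4.89, and CXCL2 rose by 3.78 over both sides (limma adjusted p = 1.46e-06). Its probe set can match the related CXCL genes, and a second, dimmer one gave 1.23, 2.52, 1.71 and 2.25, a difference between sides of -0.11 with overlap. IL6, a cytokine of the acute phase, was at 10.97 and 13.33 in ACHN, 12.65 and 15.18 in CAKI1, 7.89 and 11.27 in CAKI2 and 10.75 and 14.65 in A498. Its responses were 2.37, 2.52, 3.37 and 3.90, and it rose by 3.04 over both sides (limma adjusted p = 1.29e-05). IL1A had -1.08, 1.89, 4.58 and 2.58 in its brightest probe set, but it was below the filter on dim genes on both ACHN arrays and with DMSO in CAKI2 and A498, and the sides overlapped in another probe set. NFKB2, a subunit of the pathway, leaned the other way (1.46, 0.71, -0.31 and 0.15) without a call over both sides (limma adjusted p = 0.074), as did the inhibitor NFKBIA (1.13, 1.29, 0.79 and -0.005), which rose over both sides (limma adjusted p = 0.0045).

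DUSP6, EGR1 and SPRY4, feedback genes of growth-factor signalling, had opposite signs on the sides. DUSP6, the phosphatase that shuts off ERK, was at 10.44 with DMSO and 9.41 with the drug in ACHN, 9.09 and 8.44 in CAKI1, 8.52 and 8.88 in CAKI2 and 8.35 and 9.71 in A498. All 3 of its probe sets above the filter were separated this way, by gaps of 1.01, 0.91 and 1.38. EGR1, an immediate early factor, had -0.67, -1.03, 0.06 and 0.96, with overlap in a second probe set, and SPRY4, an inhibitor of receptor signalling, -0.15, -1.01, 0.55 and 0.84. FOS, of the same list, was positive in every line (3.17, 2.36, 4.36 and 3.54), from DMSO levels of 4.35 to 5.00, below the filter on dim genes. Of the list's 20 genes 12 rose and 0 fell over both sides, and 4 were separated with the metastasis-derived side higher and 5 the other way. In the BMP list (1 separated each way of 15) the antagonist NOG had -0.32, -1.35, 0.95 and 2.06, and ID3, a target of BMP signals, -0.51, 1.12, -1.10 and -1.62. NOG was below the filter on dim genes on both CAKI2 arrays, with the drug in CAKI1 and with DMSO in A498. Of 15 epithelial-mesenchymal and TGF-beta genes, 6 were separated with the primary-tumour side higher and 2 the other way: the receptors TGFBR2 (-1.03, -0.73, 0.18 and -0.12) and TGFBR1 (-0.15, -0.09, 0.37 and 0.58) and the matrix protein SPARC (-1.14, -1.02, -0.58 and -0.65) were lower in ACHN and CAKI1. In probe sets specific to 1 transcript by their ID, TGFBR1 had a difference of 0.13 with overlap. TGFB1 (-0.70, -1.29, -0.03 and -0.05) was close to the filter level, and its other probe set was below it.

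The drug's target SCD was at 14.26 with DMSO and 13.32 with the drug in ACHN, 14.46 and 13.92 in CAKI1, 14.63 and 14.53 in CAKI2 and 14.90 and 14.41 in A498. It fell over both sides by 0.52 on the log2 scale (limma adjusted p = 0.0061), and the sides were apart by a gap of 0.05, with overlap in its second brightest probe set. That probe set, with a lower mean level of 11.37, had larger falls (-1.22, -0.86, -0.46 and -1.13 in ACHN, CAKI1, CAKI2 and A498) in most lines. The part of signal compression in the brightest probe set was not tested. SCD5 had 0.42, 0.23, 0.63 and -0.03. Of 18 cholesterol genes 11 fell and 0 rose over both sides, and 7 were separated with the metastasis-derived side lower and 1 the other way. HMGCS1, an early enzyme of the pathway, had -1.14, -1.21, -0.12 and -0.78, with overlap in a second probe set. SQLE, the squalene epoxidase, had -1.13, -0.92, -0.48 and -0.66, and ACAT2 -1.64, -1.40, -1.18 and -0.93. The elongase ELOVL6 was at 11.62 and 9.86 in ACHN, 10.20 and 8.92 in CAKI1, 12.93 and 12.62 in CAKI2 and 12.42 and 11.53 in A498, and fell by 1.06 over both sides (limma adjusted p = 0.0014). In its other probe sets above the filter the sides overlapped, with differences between sides of -0.49 and 0.27. In the lipid droplet and oxidation list 6 of 21 were separated with the metastasis-derived side higher and 1 the other way. G0S2, the inhibitor of the lipase that empties droplets, was at 5.62 and 7.09 in ACHN, 11.04 and 12.93 in CAKI1, 6.82 and 6.40 in CAKI2 and 10.37 and 10.33 in A498. Its mean response over both sides was 0.73 (limma adjusted p = 0.010), with positive responses in ACHN and CAKI1 alone. The droplet coat PLIN2 had 1.18, 1.06, 0.57 and 0.01.

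Cell cycle genes fell over both sides. By the test of the mean response, 29 of 33 replication and G1/S genes fell and 1 rose, while in the mitotic list, also of 33, there were 31 that fell and 0 that rose. They were separated in 5 genes of each list: 4 with the metastasis-derived side higher and 1 lower in the first, and 1 higher and 4 lower in the second. MCM5, of the replication helicase, had -1.31, -0.39, -3.18 and -1.96 in its brightest probe set, and a second one overlapped with the opposite order (difference of -0.37). The mitotic kinesin KIFC1 had -2.90, -2.68, -1.33 and -2.02. By line, CAKI1 had the highest (least negative) response for 23 of the 33 replication genes (69.7%, against 23.8% of all genes).

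The interferon list (24 genes, 8 higher and 1 lower over both sides) had 7 genes with the primary-tumour side higher and 4 with the metastasis-derived side higher. RSAD2, an antiviral enzyme, was at 5.84 with DMSO and 6.06 with the drug in ACHN, 5.41 and 4.62 in CAKI1, 8.19 and 11.28 in CAKI2 and 9.24 and 10.91 in A498. It was below the filter on dim genes on every metastasis-derived array, and its second probe set was separated too. OAS1, a sensor of viral RNA, had -0.85, -0.71, 0.34 and 0.20, and USP18, which damps interferon signals, -2.58, -0.58, 0.26 and 0.45, while ISG20 leaned the other way (2.57, 2.21, 2.002 and 1.13). USP18 was below the filter on dim genes with the drug in ACHN. Of the epithelial keratins, KRT8 had -0.81, -0.95, 0.03 and -0.20, and its partner KRT18 -0.57, -0.71, -0.07 and 0.04, both lower over both sides (limma adjusted p = 0.012 and 0.022). KRT19 and KRT7, the other keratins of the list, were not separated. KRT19 was lower with the drug in every line, most in CAKI1 (11.73 to 9.64) and A498 (8.47 to 7.40). KRT7 rose most in CAKI1 (7.18 to 7.64) and fell in ACHN alone (10.16 to 9.97). The adhesion protein EPCAM had opposite signs (-0.60, -1.29, 0.46 and 0.78). CDH6, a kidney cadherin, fell most where it was bright, from 9.46 to 7.94 in CAKI2 and from 11.38 to 8.14 in A498, and was dim in ACHN. In the invasion and adhesion list 3 of 27 genes were separated with the metastasis-derived side higher, SERPINE2 (0.73, 0.51, -0.51 and -0.35), MCAM and ITGB3, and 5 with it lower, among them the integrin ITGA3 (-0.37, -1.04, 0.02 and 0.03).

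In the other lists the counts on the sides, metastasis-derived higher first, were 4 and 1 of 16 for p53 targets, 1 and 5 of 16 for the BCL2 family and death receptors, 5 and 3 of 22 for HIF targets, 6 and 1 of 14 for heat shock genes, 4 and 3 of 26 for oxidative phosphorylation, 1 and 0 of 6 for metallothioneins, 2 and 5 of 16 for fatty acid synthesis, 2 and 3 of 10 for renal epithelial genes and 2 and 1 of 8 for reference genes. BCL2L11, which encodes the death effector BIM, had -0.74, -1.11, 1.11 and -0.25 in its brightest probe set. Of its 5 other probe sets above the filter, 4 had overlapping sides. The chaperone DNAJB4 had 1.64, 1.43, 0.72 and 1.05, and the mitophagy receptor BNIP3L 0.92, 0.53, 0.01 and 0.23. NDUFB3, of respiratory complex I, fell over both sides (-0.51, -0.60, -0.94 and -1.32; limma adjusted p = 0.0013). Ribosomal protein genes were separated in 7 of 11 with the metastasis-derived side higher, and 0 passed limma's test of the mean response. The median difference depended on the scaling: it was 0.098 here, 0.475 with each array centred on its median, 0.481 with no normalization between arrays, and -0.016 with the probe sets left out that can match several transcripts.

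Beside SLC7A11, CXCL2 and G0S2, most of the widest gaps over all genes were in genes outside the lists. DKK1, a secreted Wnt inhibitor, was at 6.74 with DMSO and 9.58 with the drug in ACHN, 10.26 and 12.39 in CAKI1, 7.69 and 6.99 in CAKI2 and 6.11 and 4.17 in A498. Its responses were 2.84 and 2.13 in the metastasis-derived lines and -0.70 and -1.94 in the others, and it was below the filter on dim genes in A498; its mean response did not pass (limma adjusted p = 0.11). MAP2, a microtubule protein, had responses of 3.67, 2.38, 0.04 and 0.30, and NRCAM, a cell adhesion molecule of neurons, 2.53, 1.81, -0.24 and -0.33. Both, like SLC7A11, started lower in the metastasis-derived lines, at 8.31 and 8.70 against 12.59 and 10.81 for MAP2 and 7.59 and 7.25 against 12.74 and 11.09 for NRCAM. When treated, NRCAM remained below both primary-tumour lines, and MAP2 overlapped with them. A second probe set of NRCAM had a difference of 0.30. ALOX5AP, which serves leukotriene synthesis, had 2.79, 2.21, 0.20 and -0.02, from starts that overlapped. ABCC9, a subunit of potassium channels, had 2.75, 2.76, -0.81 and 0.42, and it was dim in CAKI2. CAMK2N1, an inhibitor of CaM kinase II, had 0.74, 0.83, -0.87 and -1.69. A second probe set of CAMK2N1 above the filter had 0.45, -0.15, -0.16 and -1.47, with a gap of 0.01. PAG1, an adaptor of Src kinases, had 0.98, 1.20, -0.81 and -0.54, with all 3 of its bright probe sets separated. RNA45SN5, a ribosomal RNA precursor, had 2.02, 2.37, 0.54 and 0.38, beside the 28S rRNA values given above. MALL (0.12, 0.16, -2.12 and -1.64) was at 4.73 to 5.11 in the metastasis-derived lines, below the filter on all 4 arrays. NFIX and LOC389831, also among the widest, had a second bright probe set with overlapping sides.

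On the other side, the caveolar protein CAVIN2 was at 12.00 with DMSO and 9.24 with the drug in ACHN, 10.37 and 8.15 in CAKI1, 4.63 and 4.77 in CAKI2 and 4.14 and 4.51 in A498. It was above the filter on dim genes only in the metastasis-derived lines. TENM4, MATN3, DCAF12L1 and SLC6A13 had negative responses in both metastasis-derived lines and were likewise dim in CAKI2 and A498 with DMSO. The other probe set of SLC6A13 was below the filter, with overlapping sides. FUT1, LINC01279 and RERG were below the filter on dim genes on both arrays of at least 1 line. Other genes reached the filter level on at least 1 array of every line. PLPP1, a phosphatase of lipid signals, was at 10.26 and 10.19 in ACHN, 10.64 and 10.49 in CAKI1, 10.97 and 13.15 in CAKI2 and 10.50 and 11.81 in A498. It started at like levels in all 4 lines and responded in CAKI2 and A498, and its second probe set was separated too. The RNA helicase DDX10 did likewise, at 10.34 to 10.73 with DMSO, with responses of 0.10, 0.19, 1.47 and 1.73. The trafficking adaptor TOM1 had 0.23, 0.14, 1.82 and 1.74, from DMSO levels below the filter in CAKI2 and A498. The kinase NUAK1 (-0.84, -0.91, 0.54 and 0.92) and RGS5, a brake on G-protein signals (-0.54, -0.66, 0.91 and 0.73), had opposite signs, as had SMPDL3B and MISP, which with PCOLCE were below the filter on some arrays, and the responses of PCOLCE, which serves collagen processing, were -1.79, -1.88, -0.44 and -0.31. Another RGS5 probe set above the filter was separated the reverse way (0.83, 0.40, 0.16 and -0.42). A further one overlapped, and the rest were separated as the main one was.

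**Figure D5:**
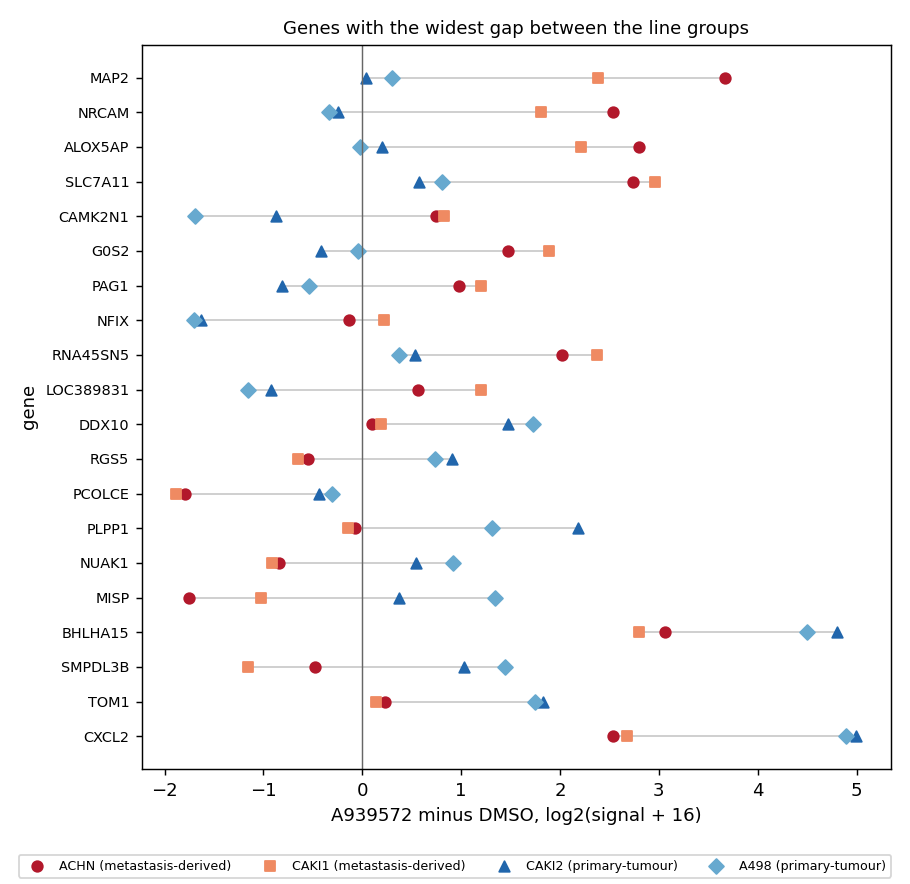
Response of the 20 genes with the widest gaps, 10 each way, among genes that reached the filter level on at least 1 array of every line. The x axis is the treated minus DMSO difference in log2(signal + 16), each point is 1 line and grey lines join the lowest and highest. From MAP2 to LOC389831 the red and orange points (ACHN and CAKI1) lie right of the blue ones, by at most 2.08, and from DDX10 to CXCL2 left of them, by at most 2.21.

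Among the 41 genes with a gap of at least 1 and the metastasis-derived side higher, 25 had opposite signs on the sides and 31 reached the filter level in every line. Of the 41, 19 passed limma's test of the mean response, as did 32% of all genes. With DMSO, 29 of the 41 were lower in both metastasis-derived lines (18.1% of all genes were) and 2 higher. By the mean of both arrays of a line, 19 were lower (18.6% of all genes) and 6 higher. Among the 55 with the primary-tumour side higher, 37 had opposite signs, 31 reached the filter level in every line and 16 passed. For opposite signs and for reaching the filter level, no share over all genes was counted. With DMSO 36 of the 55 were higher in the metastasis-derived lines (19.4% of all genes were) and 5 lower. By the mean of both arrays 26 were higher (2334 of all 12093 genes were) and 11 lower. In both sets the gene thus more often started lower on the side where its response was higher, though the choice of genes by their response favours this for the DMSO level. Of the 79 genes named by rule, 40 had another probe set above the filter level, 60 probe sets in all: 51 had a difference of the same sign and 32 were separated the same way.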

How the data were processed

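RNA of 4 cell lines, each with DMSO or A939572, was measured on 8 1-colour Affymetrix arrays. The deposited values are linear signal intensities per probe set, scaled by the authors so that the mean without the outer 2% at each end was 500.07 on every array; the program was not given in the sources used here. Array medians ran from 6.40 to 6.64 on the log2 scale; precision is set by how few arrays there are.

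From these, log2(intensity + 16) was quantile-normalized. Of 54675 probe sets, 62 controls were left out, 41091 had 1 symbol, 1801 several and 11721 none here; 41037 symbols were updated through Entrez IDs to RefSeq's GRCh38.p14. A gene took its brightest probe set, and 12093 of 19775 genes with a mean at or above 6.41, the median probe set, were tested in limma 3.58.1 (R 4.3.3) with the cell line as a block (total degrees of freedom 8.28), Benjamini-Hochberg adjusted. The median SE of a difference between sides was 0.31. The fit was tested on simulated data. Treated and DMSO arrays are paired by line by design: their deviations correlated at 0.818 or above within a line and at -0.03 or below between lines.

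Members and lists were chosen with earlier results of these data known. Of 532 listed genes 441 were tested, 44 were below the filter and 47 had no probe set with 1 symbol. Genes named by rule were SCD and SCD5, the 10 widest gaps each way over all genes, the same among genes reaching the filter in every line, up to 4 separated members a list with gaps of at least 0.3, and genes called for the difference. Further list members were chosen after their values were seen. Alternatives were normalization, offset, filter, probe set choice, variance model, the block and leaving out each line; counts of separated NRF2 and of ATF6 and XBP1 targets under them were added after seeing the data.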

Additional observations from a re-analysis of the deposited data

Results flagged for a closer look

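In the genes below the responses of both lines of a side had one sign and those of the other side the opposite sign, or limma called the difference. No size limit was set on the signs, and some responses were very small. In CAKI2 and A498, ITGA3 had 0.02 and 0.03 and MMP9 0.06 and 0.06. Values below are the metastasis-derived minus the primary-tumour mean response on the log2 scale. SLC7A11 (2.16) and CXCL2 (-2.34) were called by limma's test of the difference, and the others were not. All of them were chosen by these same responses, so the calls give no support and nothing is read from them.

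With the metastasis-derived side positive, the differences were 3.80 for DKK1, 2.46 for NRCAM, 2.02 for MALL, 2.07 for CAMK2N1, 1.91 for G0S2, 1.76 for PAG1, 1.92 for LOC389831, 1.96 for AKR1C1, 1.05 for SERPINE2 and 0.55 for PFKFB4. MALL was below the filter level in the metastasis-derived lines. For AKR1C1 and CAMK2N1 another probe set above the filter did not have opposite signs by side. In the order ACHN, CAKI1, CAKI2 and A498, that of AKR1C1 had 1.44, -0.36, -0.48 and -1.18. That of CAMK2N1 had 0.45, -0.15, -0.16 and -1.47.

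With the primary-tumour side positive and genes not in the lists, they were -2.74 for CAVIN2, -3.45 for SLC6A13, -2.37 for TENM4, -2.14 for MATN3, -2.09 for FUT1, -1.88 for DCAF12L1, -2.49 for LINC01279, -2.13 for RERG, -2.05 for SMPDL3B, -2.25 for MISP, -1.60 for NUAK1, -1.85 for PLPP1 and -1.42 for RGS5. CAVIN2, SLC6A13, TENM4, MATN3 and DCAF12L1 were below the filter level in both primary-tumour lines with DMSO. Another probe set of RGS5 above the filter was separated the reverse way.

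Among list members they were -1.70 for DUSP6, -1.36 for EGR1, -1.28 for SPRY4, -2.34 for NOG, -0.60 for TGFBR1, -0.73 for ITGA3, -0.39 for MMP9, -0.70 for STARD4, -0.71 for RFC5, -1.05 for OAS1, -1.94 for USP18 and -1.56 for EPCAM. For RFC5 the opposite signs held in its brightest probe set alone. Its other probe sets above the filter had negative responses in every line, with overlapping sides. In the order ACHN, CAKI1, CAKI2 and A498, one had -1.53, -0.94, -1.22 and -1.01. The other had -1.71, -0.88, -1.30 and -0.66.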

How the results depend on the processing

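The difference between sides was called for 2 genes; for 0 with the mean of all probe sets, with no variance trend and with no replicate block, for 1 (SLC7A11) with probe sets of several transcripts left out, and for 0 to 19 with each line left out in turn. The mean response was called for 3875 genes, 43 with no replicate block, and 2535 to 3427 without 1 line. Gaps of at least 1 numbered 96, 47 with an offset of 64, 366 with no filter, 35 with the stricter filter, and 447 to 529 without 1 line, when a side holds 1 line and gaps are easier to reach. NRF2 targets separated numbered 14 (10 to 16 over the settings) and ATF6 and XBP1 targets 12 (7 with probe sets of several transcripts left out, 12 to 18 without 1 line).

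The median of the fatty acid synthesis list, near 0, changed sign with median centring (0.0156), no normalization (0.0212), an offset of 64 (0.00313), the stricter filter (0.0468), probe sets of several transcripts left out (0.0468), and without ACHN (0.026) or CAKI2 (0.0214); its range without 1 line was -0.149 to 0.026. That of renal epithelial genes did with an offset of 1 (0.00646), the mean of all probe sets (0.000858) and without CAKI2 (-0.317 to 0.0285 without 1 line), that of lipid droplet genes without ACHN (-0.0167 to 0.176 without 1 line), and that of ribosomal proteins (-0.0161), with probe sets of several transcripts left out. The last setting also turned SLC6A13 (0.67), TGFB1 (0.60), TGFBR1 (0.13), MCM5 (-0.37) and AKR1C2 (-0.29), where the probe sets left for SLC6A13, TGFB1 and AKR1C2 were below the filter. The ribosomal median was 0.475 with median centring and 0.481 with no normalization. The cause was not tested.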
